A study of Mus musculus with 5 samples.

Results

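Ctla4, Cd28, Icos, Pdcd1, Foxp3, Il2ra, Tnfrsf4 and Tnfrsf18 are 8 genes of T cell co-stimulation, inhibition and regulation, found here by symbol in the platform's probe annotation. They had 12 probe sets among the 45101 on the array, and 18193 genes in all were named by a symbol of their own. The genes were chosen by measured values of these same arrays, since T cell genes were known to be higher on the arrays labelled KA/KA 2 and KA/KA 3 than on WT 2, so the differences below are a description and carry no test. The study hybridised RNA of bone marrow cells enriched on anti-B220 magnetic beads from FVB mice at 4 weeks of age. B220 is a surface form of CD45 on developing B cells. One group, KA/KA, had 3 arrays from mice with a kinase-dead K44A knock-in on both alleles of the gene for IKKα, a kinase that activates NF-κB transcription factors; the other, WT, had 2 arrays from wild-type littermates. The knock-in is carried by every cell of the animal, and no group had any treatment. Whether each array was made from 1 mouse or from several is not given in the labels, nor is the sex of the mice.

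T cells need a signal through CD28 beside that of their antigen receptor, and both CD28 and its relative CTLA-4 bind the ligands CD80 and CD86, CD28 to activate the cell and CTLA-4 to restrain it. ICOS is a related co-stimulatory receptor, and PD-1, the product of Pdcd1, is an inhibitory one. OX40 (Tnfrsf4) and GITR (Tnfrsf18) are co-stimulatory receptors of the TNF receptor family. FOXP3 is the transcription factor that defines regulatory T cells, which also carry CTLA-4, GITR and the interleukin 2 receptor α chain CD25 (Il2ra) at their surface. Developing B cells of the marrow are not known for most of these genes, although CD25 also marks pre-B cells.

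Cd28, Ctla4 and Icos are consecutive protein-coding genes on chromosome 1 in the RefSeq annotation of GRCm38.p6, and Tnfrsf4 and Tnfrsf18 are neighbours on chromosome 4. RefSeq windows from 250 bases before to 50 after the gene's start were matched for 6 members, 7 windows in all, and searched on both strands for the NF-κB consensus site of 10 bases. Of 32851 windows in the table, 4.51% held it, as did 1 of the 7 windows of members, that of Il2ra. The windows of the inhibitory receptor genes Ctla4 and Pdcd1 are shown beside that of Il2ra, all 3 of which were at background on WT 2 and above it on KA/KA 2 and KA/KA 3. Capitals mark the 2 overlapping matches in Il2ra, and the windows of Ctla4 and Pdcd1 held none. A match describes these letters and no binding was measured.
Ctla4 promoter, chr1:60908775-60909074, + strand: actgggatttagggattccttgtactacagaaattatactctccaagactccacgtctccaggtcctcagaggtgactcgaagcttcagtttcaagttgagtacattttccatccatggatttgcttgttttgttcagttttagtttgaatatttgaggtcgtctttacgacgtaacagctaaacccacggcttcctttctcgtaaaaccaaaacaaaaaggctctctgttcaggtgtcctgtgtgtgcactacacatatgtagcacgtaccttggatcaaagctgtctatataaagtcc
Pdcd1 promoter, chr1:94052504-94052803, - strand: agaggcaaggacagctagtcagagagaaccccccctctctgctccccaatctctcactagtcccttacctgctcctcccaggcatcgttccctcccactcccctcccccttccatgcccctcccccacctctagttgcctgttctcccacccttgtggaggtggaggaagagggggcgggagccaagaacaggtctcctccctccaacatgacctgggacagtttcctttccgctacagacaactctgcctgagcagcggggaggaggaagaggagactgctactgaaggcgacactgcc
Il2ra promoter, chr2:11642542-11642841, + strand: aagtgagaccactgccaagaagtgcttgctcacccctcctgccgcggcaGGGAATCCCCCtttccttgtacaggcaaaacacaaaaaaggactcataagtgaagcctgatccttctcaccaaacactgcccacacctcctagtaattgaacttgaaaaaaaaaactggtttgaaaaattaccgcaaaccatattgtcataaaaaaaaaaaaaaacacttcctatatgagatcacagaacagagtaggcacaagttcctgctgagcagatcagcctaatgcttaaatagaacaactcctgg

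The arrays did not all fit their label. The 24 poly-A control probe sets, for bacterial transcripts added before labelling, split them into KA/KA 1 with WT 1 (median signal 7305 and above) and KA/KA 2, KA/KA 3 and WT 2 (median signal 249 and below). Of 9 B-lineage genes measured, all 9 were above background on the first pair. On the other 3 arrays 3 to 5 of them were, and Rag1, Dntt, Igll1 and Vpreb1, which define precursor B cells, were at background on all 3. Lung epithelial genes ran the other way: 7 or 8 of 8 were above background on KA/KA 2, KA/KA 3 and WT 2, with a summed signal of 94187 to 142853 against 371 and 420.3 on the first pair. KA/KA 2 and KA/KA 3 are therefore compared with WT 2, and KA/KA 1 with WT 1. The arrays are named by their labels throughout.

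Signals are the deposited MAS5 intensities, and levels and differences are given as log2(signal + 16), where the added constant shrinks differences at low signal. A probe set was taken as at background on an array when it lay at or under the 95th percentile of 84 probe sets of odorant, pheromone and taste receptor genes on the same array. That limit was a signal of 58.3 on KA/KA 1, 75.1 on WT 1, 76.8 on KA/KA 2, 88.0 on KA/KA 3 and 92.7 on WT 2. A member was at background when all of its probe sets were; other genes were judged by their probe set of highest mean. In bulk RNA, fewer cells of a type and less RNA per cell cannot be told apart.

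Cd28, Icos, Tnfrsf4 and Tnfrsf18 were above background on all 5 arrays. Ctla4 was at background on KA/KA 1, WT 1 and WT 2, and Pdcd1 and Foxp3 on both WT arrays. Il2ra was at background on WT 2. No member was at background on KA/KA 2 or KA/KA 3, against 4 members on WT 2, 3 on WT 1 and 1 on KA/KA 1. With the 90th percentile as the limit, Ctla4 and Foxp3 were above background on WT 2, which left 2 members at background there. With the 99th, Pdcd1 and Foxp3 were at background on KA/KA 1 too, and Il2ra on KA/KA 3. With the array median as the limit, Foxp3 was at background on all 5.

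**Figure D1:**
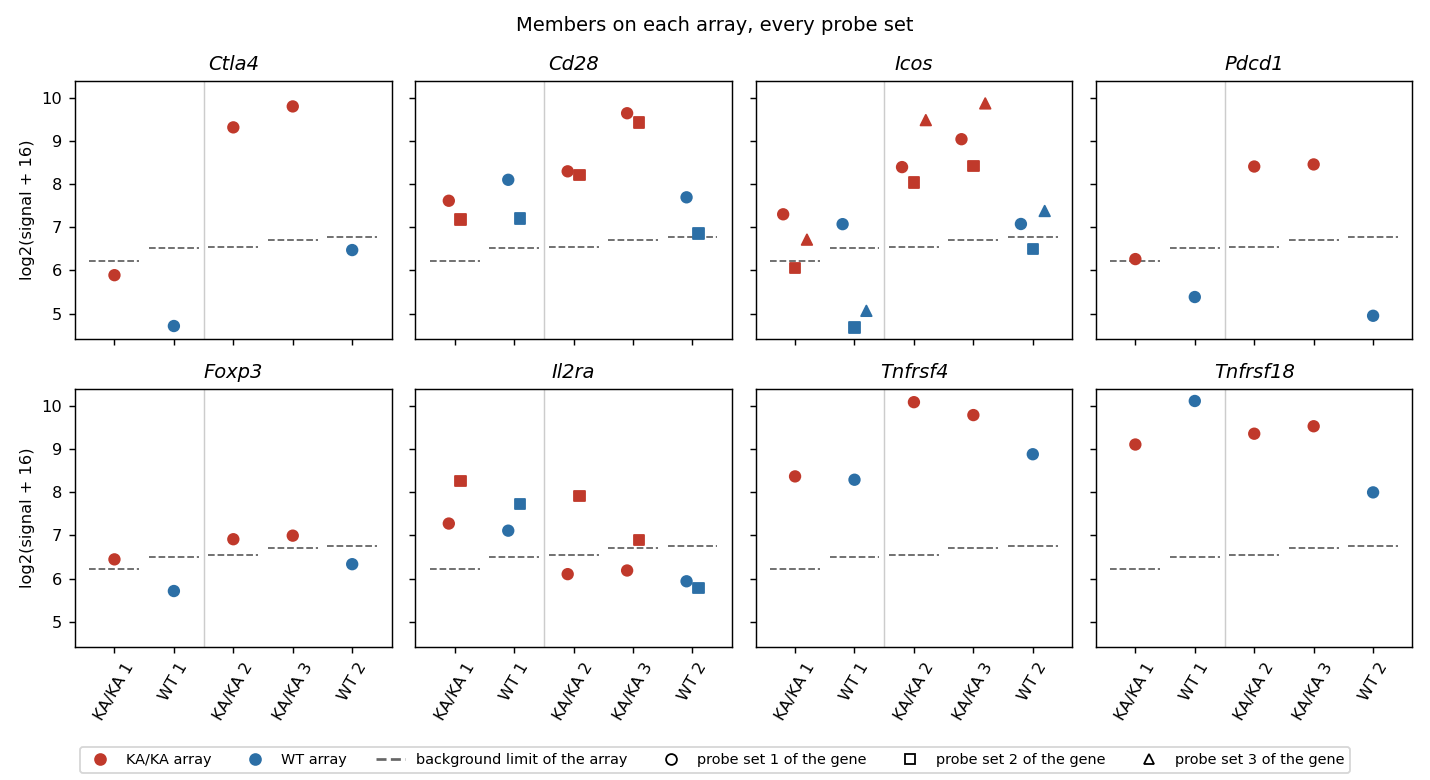
Level of each member on each array as log2(signal + 16), 1 panel per gene, with KA/KA arrays in red, WT arrays in blue, a marker shape for each probe set and the array's background limit as a dashed bar. Ctla4 and Pdcd1 stand clear of the limit on KA/KA 2 and KA/KA 3 only, Foxp3 stays close to it everywhere, and Tnfrsf18 is highest on WT 1.

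All 8 members were higher on KA/KA 2 and on KA/KA 3 than on WT 2, as were all 12 probe sets; among 13696 genes above background on at least 1 of these 3 arrays, 32.3% were higher on both. On the probe set of highest mean, 5 of 8 members (Ctla4, Icos, Pdcd1, Il2ra and Tnfrsf18) were over 1 log2 unit, that is 2-fold, higher on both, where 3.88% of those genes were and 2.70% were lower by as much. The members' median difference was 1.34 on KA/KA 2 and 1.74 on KA/KA 3, and the median over all 13696 genes was -0.04 and -0.03. Because the members were picked with this contrast known, the counts are a description. With WT 2 raised to its background limit, a setting chosen after seeing the data, 4 members passed and Il2ra did not.

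Among the co-stimulatory members of the CD28 family, Cd28 itself had a pair of probe sets. The probe set of higher mean gave a signal of 298 on KA/KA 2, 784 on KA/KA 3 and 191 on WT 2, with 179.9 on KA/KA 1 and 258 on WT 1. Its level was high on KA/KA 3 alone, while KA/KA 2 lay near WT 1. The difference from WT 2 was 0.60 on KA/KA 2 and 1.95 on KA/KA 3. The other probe set gave 281, 675 and 99.8 in the same order, differences of 1.36 and 2.58, and 128 on KA/KA 1 and 131 on WT 1. Both probe sets thus put KA/KA 3 highest of the 5 arrays, and they disagree on whether KA/KA 2 passed 1 log2 unit.

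Icos, which sustains help by activated T cells, had 3 probe sets that ordered KA/KA 3, KA/KA 2 and WT 2 alike. On the probe set of highest mean its signal was 321 on KA/KA 2, 511 on KA/KA 3 and 119 on WT 2, with 142 on KA/KA 1 and 119 on WT 1. The KA/KA and WT arrays did not overlap here, though KA/KA 1 exceeded both WT arrays by little. The probe set with the widest range gave 699.8 on KA/KA 2, 920.1 on KA/KA 3 and 150.2 on WT 2, with 88.9 on KA/KA 1 and 17.4 on WT 1. There KA/KA 1 lay below WT 2, so the groups overlapped. The mean difference of KA/KA 2 and KA/KA 3 from WT 2 was 1.64 ± 0.46, 1.73 ± 0.27 and 2.30 ± 0.27 over the 3 probe sets (± SD of the 2 KA/KA arrays).

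Both inhibitory receptors were at background on WT 2, so their differences from it are bounds. Ctla4 had a signal of 621 on KA/KA 2, 876 on KA/KA 3 and 72.7 on WT 2, and of 43.3 on KA/KA 1 and 10.2 on WT 1. It was high on KA/KA 2 and KA/KA 3 and at background on the other 3 arrays, so the KA/KA group spanned both states. The measured level differed from WT 2 by 3.09 ± 0.34 (mean of KA/KA 2 and KA/KA 3, ± SD, n = 2 against 1). Set against the background limit of WT 2, the signal was at least 6.70-fold higher on KA/KA 2 and at least 9.46-fold higher on KA/KA 3. Pdcd1 had a signal of 324 on KA/KA 2, 335 on KA/KA 3 and 14.9 on WT 2, and of 60.8 on KA/KA 1 and 25.7 on WT 1. All 3 KA/KA arrays lay above both WT arrays, but KA/KA 1 only just passed its own background limit. The difference from WT 2 was 3.48 ± 0.03, and at least 3.49-fold and 3.62-fold in signal against the limit. The measured ratio of Pdcd1 was far larger (21.8 and 22.5) because WT 2 lay deep in the background.

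Of the TNF receptor family members, Tnfrsf4 read 1074 on KA/KA 2, 870.0 on KA/KA 3 and 456 on WT 2, and 315 on KA/KA 1 and 298 on WT 1. It was above background everywhere, highest on KA/KA 2 and KA/KA 3 and lowest on the first pair. The difference from WT 2 was 1.21 on KA/KA 2 and 0.91 on KA/KA 3. Its genomic neighbour Tnfrsf18 read 641 on KA/KA 2, 725 on KA/KA 3 and 239.9 on WT 2, but 536 on KA/KA 1 and 1095 on WT 1. WT 1 was thus the highest array and WT 2 the lowest, and the genotypes overlapped completely in that the KA/KA arrays lay between the WT arrays. The difference from WT 2 was 1.45 ± 0.12.

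Foxp3 stayed dim. Its signal was 105 on KA/KA 2, 112 on KA/KA 3 and 64.7 on WT 2, and 71.2 on KA/KA 1 and 36.4 on WT 1. The KA/KA arrays lay above both WT arrays, on which Foxp3 was at background. The difference of KA/KA 2 and KA/KA 3 from WT 2 was 0.62 ± 0.06, yet they reached 1.13 and 1.21 times the background limit of WT 2. KA/KA 1 lay under that limit. Il2ra was the member for which probe sets disagreed most. The probe set of higher mean read 226 on KA/KA 2, 103 on KA/KA 3 and 39.1 on WT 2, and 292 on KA/KA 1 and 196 on WT 1, so that KA/KA 1 was highest. The difference from WT 2 was 2.13 on KA/KA 2 and 1.11 on KA/KA 3, which against the background limit is at least 2.44-fold and at least 1.11-fold. The second probe set, made from the same transcript record, was at background on KA/KA 2 (52.8), KA/KA 3 (56.9) and WT 2 (45.3) and above it on KA/KA 1 (139) and WT 1 (122). Il2ra and Tnfrsf18 were the members with a higher mean on KA/KA 1 and WT 1 than on the other 3 arrays, by 1.13 and 0.65 log2 units.

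Between KA/KA 1 and WT 1 the members differed less and in both directions, with Cd28 and Tnfrsf18 lower on KA/KA 1 and the others higher by any amount. Differences ran from -1.01 for Tnfrsf18 to 1.18 for Ctla4. Over the 7 members above background on either array the median was 0.23, and over all 12409 such genes it was 0.08. Tnfrsf18 and Ctla4, 2 of the 8 members, were over 1 log2 unit apart. Of the 7 members above background on either array, 1 was so (Tnfrsf18, lower on KA/KA 1). Among the 12409 such genes 5.85% were (3.73% higher and 2.12% lower on KA/KA 1). Ctla4 was at background on both arrays, so its difference is no measured change. Pdcd1 (0.88) and Foxp3 (0.73) were at background on WT 1, and on KA/KA 1 they passed the limit of 58.3 with signals of 60.8 and 71.2. Cd28 (-0.49), Il2ra (0.54) and Tnfrsf4 (0.08) were measured on both. Icos differed by 0.23 on its probe set of highest mean, which was measured on both, and by 1.37 and 1.65 on the others, which were at background on WT 1; the mean of its probe sets differed by 1.08. With 1 array on each side there is no replicate check of any of these values.

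**Figure D2:**
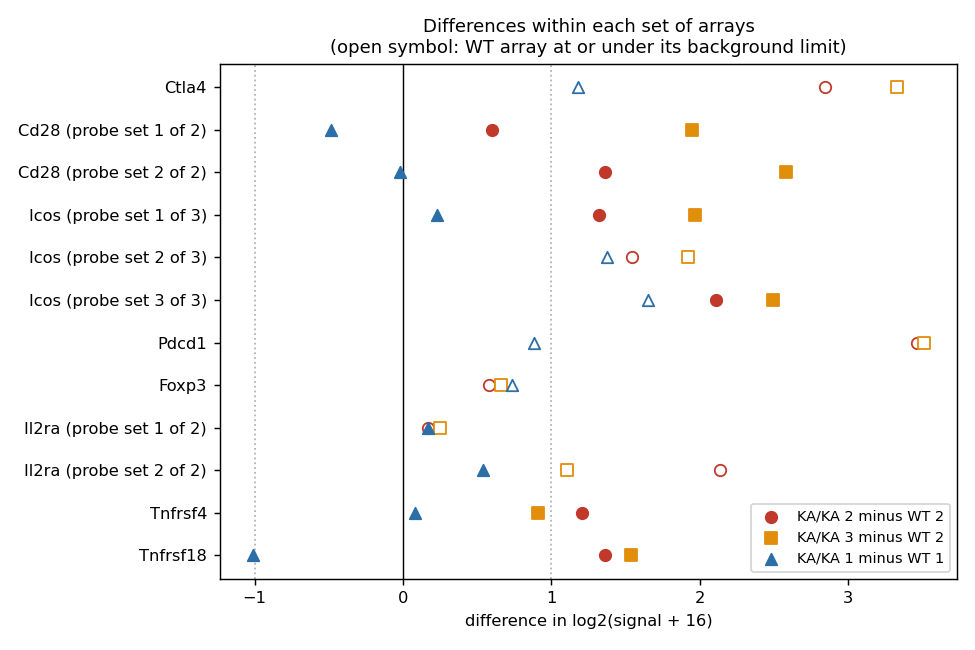
Difference in log2(signal + 16) for each of the 12 probe sets, KA/KA 2 minus WT 2 (circles), KA/KA 3 minus WT 2 (squares) and KA/KA 1 minus WT 1 (triangles); open symbols mark a WT array at or under its background limit, and dotted lines a difference of 1. All circles and squares lie above 0, whereas triangles lie on both sides, Tnfrsf18 at -1.01.

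Over all 5 arrays, 3 of 8 members (Icos, Pdcd1 and Foxp3) had every KA/KA array above both WT arrays and 0 had the reverse, against 4.35% and 2.95% of 14422 genes above background on at least 1 array. Icos did so on its probe set of highest mean and on neither of the others. Pdcd1 and Foxp3 were at background on both WT arrays. Their KA/KA 1 signals (60.8 and 71.2) lay under the background limits of WT 1 (75.1) and WT 2 (92.7). Their order on KA/KA 1, WT 1 and WT 2 is therefore no measured separation. limma fitted to the whole table, 3 KA/KA against 2 WT arrays, called 0 of 11392 genes (0%) at an adjusted p under 0.05. In this fit 25 genes had an unadjusted p under 0.05. Both groups held arrays of both sets, so the difference between the sets is part of the spread that the fit measured. Of the members, 6 passed that fit's filter on dim probe sets, Pdcd1 and Foxp3 did not, and 0 were called. With KA/KA 2, KA/KA 3 and WT 2 alone, limma also called 0 genes, with 774 at an unadjusted p under 0.05. KA/KA 2 and KA/KA 3 thus have 1 WT array to be compared with, and what is particular to that array cannot be told apart from genotype.

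Genes that mark T cells at large were higher on the same arrays. Of 17 T cell identity genes measured, 16 were above background on at least 1 of KA/KA 2, KA/KA 3 and WT 2; 15 were higher on both KA/KA arrays than on WT 2, 7 of them by over 1 log2 unit, with medians of 0.93 and 1.80. Cd3d, a chain of the T cell receptor complex, differed by 1.49 and 3.29, Cd5 by 1.67 and 3.25, and Bcl11b, a transcription factor of the T lineage, by 2.47 and 2.55. Cd4 was at background on all 3 arrays. The summed signal of the list was 8517 on KA/KA 2, 16186 on KA/KA 3 and 4324 on WT 2, which is 1.97 and 3.74 times WT 2, while on KA/KA 1 it was 4627 against 6840 on WT 1. The part of T cell number in the members' differences was not tested. Against the background limit of WT 2, Ctla4 was higher by at least 2.55 and 3.04 and Pdcd1 by at least 1.64 and 1.69; on KA/KA 2 Bcl11b (2.47) and on KA/KA 3 Cd3d (3.29) and Cd5 (3.25) were the T cell identity genes with the largest differences. Among the members measured on all 3 arrays, Icos lay over the list's median by 0.39 and 0.17, and Cd28 (-0.33 and 0.15), Tnfrsf4 (0.28 and -0.89) and Tnfrsf18 (0.43 and -0.27) lay on either side of it.

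Other receptors of T cells showed part of this. Of 14 measured, 12 were above background on at least 1 of the 3 arrays, and 9 were higher on both KA/KA 2 and KA/KA 3 than on WT 2, 4 by over 1 log2 unit (medians 0.50 and 1.02). Tnfrsf1b, a receptor for TNF, differed by 1.17 and 1.36. The other 3 were at background on WT 2, so their differences are bounds set at its limit: Tnfrsf9, the co-stimulatory receptor 4-1BB, differed by at least 2.63 and 1.60, and Sh2d1a, the adaptor SAP, by at least 0.30 and 1.92. Lag3, an inhibitory receptor that binds MHC class II, was under that limit on KA/KA 2 and at least 0.44 above it on KA/KA 3.

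Of 14 other regulatory T cell genes measured, 12 were above background there; 8 were higher on both, 3 by over 1 log2 unit, and 3 were lower on both (medians 0.47 and 0.78). Izumo1r, the folate receptor 4 of regulatory T cells, read 8.18 on KA/KA 2 and 9.81 on KA/KA 3 against 5.09 on WT 2, which is background. The regulatory cytokine Il10 read 7.12 and 8.47 against 6.02, and the receptor gene Gpr83 read 7.34 and 7.74 against 6.31, both again background on WT 2. Against the background limit of WT 2, Izumo1r differed by at least 1.42 and 3.05. Il10 differed by at least 0.36 and 1.70, and Gpr83 by at least 0.58 and 0.98, so neither passed 1 log2 unit on both arrays by this bound. The transcription factor genes Ikzf2 (0.99 and 0.94) and Ikzf4 (-0.41 and -0.06) lay on either side of 0. Nrp1 (-0.58 and -0.35) and Nt5e (-0.54 and -0.20), which endothelial and other tissue cells also express, were lower.

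Of 8 ligands and cytokine partners measured, 6 were above background and 5 were higher on both, 0 by over 1 log2 unit (medians 0.73 and 0.72). The CTLA-4 and CD28 ligands Cd80 (0.24 and 0.71) and Cd86 (0.47 and 0.73), and the PD-1 ligand gene Cd274 (1.07 and 0.53), were higher on both, as were the second PD-1 ligand gene Pdcd1lg2 (1.71 and 0.76) and Il2rb (0.99 and 2.15), a partner chain of the Il2ra product; Cd80, Pdcd1lg2 and Il2rb were at background on WT 2, and Il2rb on KA/KA 2 as well. The ICOS ligand gene Icosl (-0.91 and 0.28) lay on either side of 0. Il2, the cytokine bound by the Il2ra product, was at background on all 5 arrays, and Tnfsf4, the OX40 ligand gene, on all but KA/KA 1. Of 17 signalling partners, 11 were higher on both, 2 by over 1 log2 unit: Vav1, an exchange factor in antigen receptor signalling, and Prkcq, a protein kinase C of T cells. Both were at background on WT 2, and against its limit they differed by at least 1.19 and 1.26 and by at least 0.88 and 1.89.

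**Figure D3:**
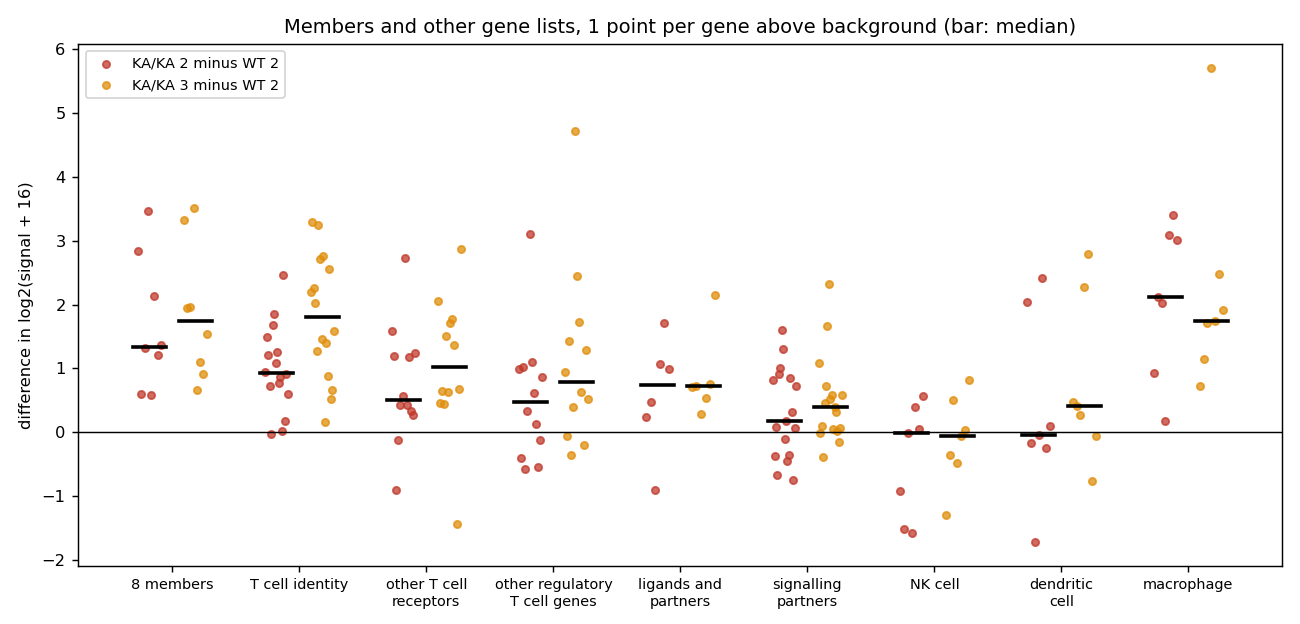
Difference in log2(signal + 16) of KA/KA 2 (red) and KA/KA 3 (orange) from WT 2, with 1 point per gene above background on at least 1 of the 3 arrays and a bar at each list's median. The 8 members have medians of 1.34 and 1.74 and T cell identity genes of 0.93 and 1.80, NK cell genes lie around 0 (-0.01 and -0.07), and macrophage genes lie at 2.11 and 1.75.

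Markers of other cells moved on these arrays as well. All 7 macrophage genes were higher on both KA/KA 2 and KA/KA 3 than on WT 2, 5 by over 1 log2 unit, with a summed signal of 59375 and 37660 against 13376. Of these, Marco was at background on KA/KA 2 (4.81) and WT 2 (4.64), so its difference there is not measured, and it read 10.35 on KA/KA 3. NK cell genes were higher on both for 2 of 7 (summed 1451, 1895 and 2086). Dendritic cell genes were higher on both for 2 of 7, with a summed signal of 8813 and 7992 against 3325 and medians of -0.05 and 0.40. The 2 were Fscn1, which marks activated dendritic cells and had the largest differences of the list (2.42 and 2.79), and Itgax (2.04 and 0.47). Lower on both was 1 gene, Cd209a (-0.26 and -0.77). Group 2 innate lymphoid cells can carry Icos, Il2ra and Tnfrsf18. Genes of these cells were higher on both for 1 of 4 (Il5), with summed signals of 1687, 1680 and 1815. Il13 and Il9r were at background on all 5 arrays. Il5 and Il17rb were above background on KA/KA 2 (6.78 and 7.75). Both were at background on KA/KA 3 (5.10 and 6.60) and on WT 2 (4.76 and 6.67). Against the background limit of WT 2, they were higher on KA/KA 2 by at least 0.01 and 0.99. Mast cell genes were higher on both for 1 of 4 (summed 2805, 2210 and 2175). Squamous epithelial genes summed to 35685 on KA/KA 2 against 274 on KA/KA 3 and 435 on WT 2. The part of these cells in the members' values was not tested.

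The genes most like the members over the 5 arrays were found by the root mean square difference of log2 levels, each centred on its own mean, among 14414 genes above background on at least 1 array. Nearest to the members' mean pattern were Gjd4 (0.18), A430093F15Rik (0.18), Ifitm7 (0.19), Camk2n2 (0.21), Il1a (0.21), Abca1 (0.22), S100a4 (0.23) and Tnfaip3 (0.24), where the median gene lay at 0.93. Of the members, Icos lay at 0.18 and Tnfrsf4 at 0.38 from this mean, and Ctla4 (1.31) and Il2ra (1.03) were farthest. Nearest to Ctla4 itself were the actin-bundling gene Fscn1 (0.36), the chemokine gene Ccl22 (0.38) and Retnla (0.42), a secreted protein of alternatively activated macrophages and of lung epithelium, where the median gene lay at 1.97. Nearest to Il2ra were Hps6 (0.07), Galnt7 (0.15) and Nckap1l (0.18), where the median gene lay at 1.02. Several of these near genes were at background on some arrays. Gjd4 was so on KA/KA 1, WT 1 and WT 2, Ifitm7 on all but KA/KA 3, and Hps6 on KA/KA 3 and WT 2. A430093F15Rik and Camk2n2 were so on WT 1 and WT 2, Il1a on WT 2, and Ccl22 on KA/KA 1 and WT 1. Part of their likeness therefore rests on values within background. With 5 arrays of 2 kinds, such likeness is a description of these arrays.

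**Figure D4:**
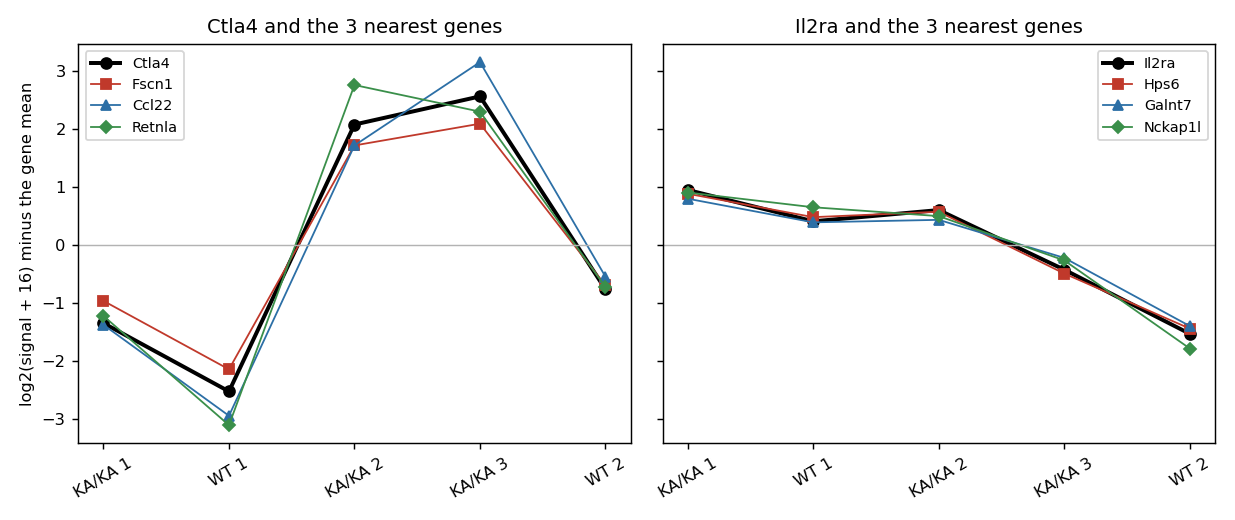
Levels of Ctla4 (left) and Il2ra (right) with their 3 nearest genes, as log2(signal + 16) minus each gene's own mean over the 5 arrays; lines join the arrays only to guide the eye. Ctla4 and its neighbours are high on KA/KA 2 and KA/KA 3 and lowest on WT 1, while Il2ra and its neighbours are highest on KA/KA 1 and lowest on WT 2.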

How the data were processed

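The authors deposited 1 table of intensity values, 45101 probe sets on 5 Affymetrix mouse arrays (3 KA/KA and 2 WT). Per the submitters' processing notes the software was MAS5 (no version given). The design text mentions a log2 transformation, but the deposited intensities were linear, with a trimmed mean of 500.0 on each array (2% left out at each end). No further scaling was done. Gene symbols came from the platform annotation, in which 34945 probe sets had 1 symbol, and 64 control probe sets were left out. For counts over genes, the probe set of highest mean stood for a gene. The number of arrays limits the precision; depth has no counterpart here.

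limma 3.58.1 in R 4.3.3 (lmFit, eBayes with an intensity trend, two-sided, Benjamini-Hochberg) was fitted on log2(signal + 16) to 11392 genes kept by a filter at the median level, and its script was tested on simulated data. The same fit underlies all adjusted p-values, and p-values measure the spread between these arrays. Over all 5 arrays with no block, that spread holds the difference between the array sets. The 0 calls there are therefore no measure of how little the genotypes differ. Members' differences from WT 2 or from WT 1 were given no test.

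The members, the lists and the array sets were chosen with earlier results of these data known. Other genes were named by size: in pathway lists, those over 1 log2 unit higher or lower on both KA/KA 2 and KA/KA 3 than on WT 2 and above background, at most 5 a list. The genes named from the cell type lists, the ligands and cytokine partners, Ikzf2, Ikzf4, Nrp1 and Nt5e were added after their values were seen, as were the bounds set at the background limit of WT 2. Sequences come from RefSeq (GRCm38.p6). The transcript of the mutated gene was not analysed here.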

Additional observations from a re-analysis of the deposited data

Results flagged for a closer look

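Tnfrsf18 and Cd28 differed in opposite directions in the 2 sets of arrays. Tnfrsf18 was lower on KA/KA 1 than on WT 1 (-1.01) and higher on KA/KA 2 (1.36) and KA/KA 3 (1.53) than on WT 2. Cd28 was lower on KA/KA 1 than on WT 1 (-0.49) and higher on KA/KA 2 (0.60) and KA/KA 3 (1.95) than on WT 2. On the second probe set of Cd28 the first of these differences was -0.02. The difference between the sets was not tested, and the sets were drawn from control probes, not from the labels. Groups of 3 and 2 arrays are too small for a check of outlying arrays.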

How the results depend on the processing

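The count of members over 1 log2 unit higher on both KA/KA 2 and KA/KA 3 than on WT 2 was 5 as reported and 4 to 6 under a constant of 1 or 64 in place of 16, median centring, quantile normalisation, the mean of a gene's probe sets, every probe set having to pass, WT 2 raised to its limit (the last 2 added after seeing the data) and leaving out KA/KA 2 or KA/KA 3. By construction, leaving out an array could only keep or raise this count. The settings added after seeing the data could only keep or lower it. The count of members over 1 log2 unit apart between KA/KA 1 and WT 1 was 2 as reported, 0 with a constant of 64, 1 with median centring, 2 with quantile normalisation and 3 with a constant of 1 or the mean of probe sets; the causes were not tested. Members at background on all 5 arrays numbered 0 with the 90th, 95th and 99th percentiles as the limit and 1 (Foxp3) with the array median. Of 70 recomputed differences of members that a setting could move (leaving out KA/KA 2 or KA/KA 3, which cannot shift a mean past that spread, and averages of a lone probe set not counted), 55 stayed within the spread between KA/KA 2 and KA/KA 3, 14 moved by more, and 1 changed sign: Tnfrsf4 on KA/KA 1 minus WT 1 became -0.00496 with quantile normalisation (cause not tested). Differences of KA/KA 1 from WT 1 were judged by this spread too, although it was measured on other arrays. With all 5 arrays kept, limma called 0 genes under every setting but 1, with 19 to 329 genes at an unadjusted p under 0.05. Leaving out a KA/KA array gave 0 calls, with 6 to 164 such genes. Leaving out a WT array leaves 1 WT array, so those fits are not counted here. With the replicate number of the labels as a block limma called 1 gene, Xist, named after its value was seen, and 0 members. Xist was called as higher in KA/KA. The sex of the mice is not given in the labels, and its part in this call and in the other differences was not tested. Same-numbered arrays deviated together (r = 0.88 for number 1 and 0.65 for number 2, across genes). The number 1 arrays form the first array set and the number 2 arrays lie in the other, so these values cannot tell pairing from the sets. With 2 WT arrays, their deviations mirror each other, so the r values are not separate checks. The numbers were not taken as pairing, as 2 pairs are also too few. A block for the 2 array sets gave 0 calls. Signal over background limits Ctla4, Pdcd1, Foxp3 and Il2ra, whose WT 2 values give bounds only.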
